A study of Rattus norvegicus with 22 samples.

Results

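The genes described here are 10 genes of oligodendrocyte precursors and of their differentiation: Olig1, Olig2, Sox10, Pdgfra, Cspg4, Gpr17, Pcdh15, Bcas1, Enpp6 and Tcf7l2. They were chosen by name, as the rows of the count table whose gene symbol equals a listed symbol, and all 10 were found among the 32883 genes of the table. The tissue was the ventral part of the cervical spinal cord, segments C3 to C6, of young adult Sprague-Dawley rats aged 3 to 4 months. RNA of each rat was sequenced as a library of its own. There were 5 gonadally intact males, 5 males whose testes had been removed (GDX), 6 gonadally intact females and 6 females whose ovaries had been removed (OVX). Tissue of GDX and OVX rats was taken 2 weeks after surgery, and all rats were perfused with saline before the cord was taken. The controls had their gonads in place and no sham surgery is described for them. Every GDX or OVX difference therefore includes surgery with its anaesthesia and the long-lasting buprenorphine given before it against pain. Between 12371756 and 17571887 reads were counted per library, and the group medians were 14196615 for intact males, 15645521 for GDX males, 14640726 for intact females and 14766802.5 for OVX females.

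Oligodendrocytes wrap axons of the central nervous system in myelin. They arise from precursor cells that persist in the adult cord, divide slowly and differentiate in steps. Platelet-derived growth factor, acting through the receptor encoded by Pdgfra, keeps precursors dividing. The transcription factors Olig1, Olig2 and Sox10 are present along the whole lineage, and the surface proteoglycan encoded by Cspg4, also called NG2, marks precursors. Cells that leave the precursor state pass through a stage with the receptor Gpr17 and with Tcf7l2, an effector of Wnt signalling, and then express Bcas1 and the phosphodiesterase Enpp6 as they begin to make myelin. Steroid hormones of the gonads are known to act on cells of this lineage, and the comparisons below address how the 10 genes stood with and without the gonads in each sex.

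Libraries fell into 2 technical classes by fragment size. The 7 longer-fragment libraries were those of intact males 1, 3 and 6 and of intact females 2, 3, 5 and 6. All other 15 libraries, including every GDX and OVX library, were of the shorter-fragment class. Removal of the gonads and library class were therefore partly confounded, and values from the shorter-fragment libraries alone are given for the genes called. No library looked like a copy of another: over 50 pairs of libraries within groups, the lowest chi-square per degree of freedom was 4.97.

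All 10 genes were detected in every rat and passed the filter on low counts in every comparison. The lowest count was 138 reads, for Gpr17 in an intact female, and the highest was 15632 reads, for Bcas1. Values are given as CPM, read counts scaled to the library total with TMM factors, and CPM is compared between rats for the same gene and not between genes, since gene length was not used. A gene named as taking the most reads of a list is so by reads and not by transcripts. Across all 22 rats the coefficient of variation was lowest for Bcas1, at 7.30%, and highest for Enpp6, at 14.4%. The tissue was analysed in bulk, so fewer cells of a type and less RNA per cell cannot be told apart.

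**Figure D1:**
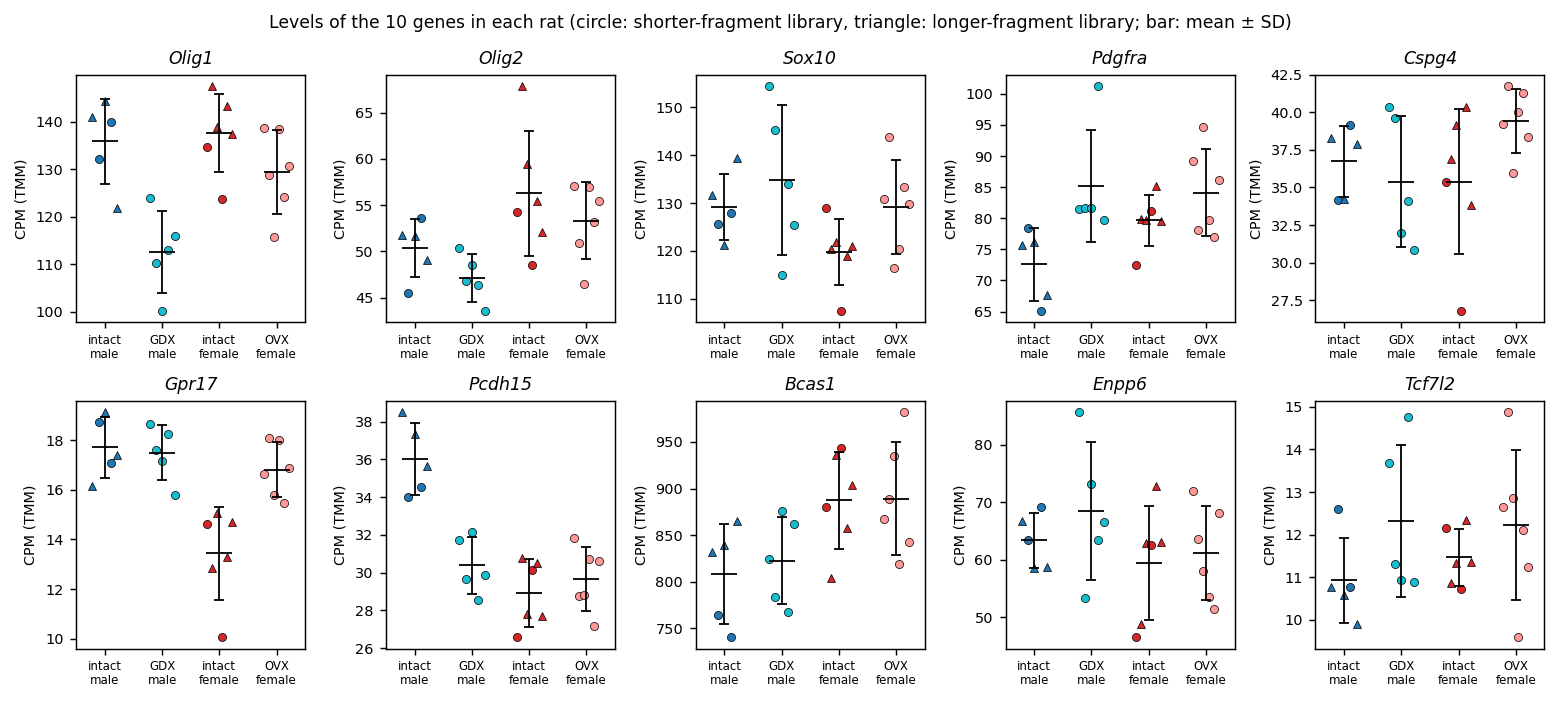
CPM of each of the 10 genes (vertical axes, scaled to each gene and not starting at 0) in every rat of the 4 groups, with circles for shorter-fragment and triangles for longer-fragment libraries and bars for the mean and SD. Intact males lie above all other rats for Pcdh15, GDX males have the lowest mean for Olig1, and intact females have the lowest mean for Gpr17.

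Removal of the testes was followed by lower Olig1 and Pcdh15 and by higher Pdgfra. In GDX males, Olig1 was 17.1% lower and Pcdh15 15.5% lower than in intact males, and Pdgfra was 17.4% higher. The other 7 genes, Olig2, Sox10, Cspg4, Gpr17, Bcas1, Enpp6 and Tcf7l2, did not pass the test. With 5 rats per group, 3 of the 10 genes were called with an adjusted p below 0.1 by the quasi-likelihood test of edgeR (Benjamini-Hochberg over 14931 genes), against 13.4% of all genes tested. Lower levels were called for 2 of the 10, against 6.58% of all genes, and higher levels for 1, against 6.78%. The same 3 genes were the ones with an unadjusted p under 0.05, which 23.8% of all genes had.

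Olig1, a basic helix-loop-helix transcription factor needed for the maturation and repair functions of the lineage, is annotated in the count table as ENSRNOG00000028648. Its level was 140.9, 132.2, 144.4, 140.0 and 121.9 CPM in intact males 1, 2, 3, 5 and 6. In GDX males 1, 2, 4, 5 and 6 it was 123.8, 110.2, 100.2, 113.0 and 115.9 CPM. GDX male 1 lay just above intact male 6, and all other GDX males lay below every intact male. The log2 fold change was −0.27 (SE 0.06, adjusted p = 0.0134). With the 2 intact males of the shorter-fragment class alone, which stood at 132.2 and 140.0 CPM and so above all GDX males, the fold change stayed at −0.27 and the adjusted p was 0.106.

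Olig2 is the relative of Olig1 that specifies the lineage, and the Olig1 and Olig2 genes are neighbours on chromosome 11 with 0 annotated genes between them in the rat assembly GRCr8. Olig2 ranged from 45.5 to 53.6 CPM in intact males and from 43.6 to 50.4 CPM in GDX males. Its log2 fold change had the same sign as that of Olig1 but was smaller, at −0.09 (SE 0.06, unadjusted p = 0.111). Within libraries, which needs no scaling between rats, the ratio of Olig1 to Olig2 read counts was 2.70 ± 0.163 (SD, n = 5) in intact males and 2.39 ± 0.216 (SD, n = 5) in GDX males. These ratios overlapped, with 2.48 to 2.90 in intact males and 2.06 to 2.66 in GDX males.

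Sox10, which activates myelin genes and is also expressed by Schwann cells, spanned 121.3 to 139.3 CPM in intact males and 115.0 to 154.5 CPM in GDX males (log2 fold change 0.06, SE 0.07, adjusted p = 0.637). Tcf7l2 lay between 9.91 and 12.6 CPM in intact males and between 10.9 and 14.8 CPM in GDX males (log2 fold change 0.17, SE 0.10, adjusted p = 0.344). For both transcription factors the spread among GDX males was wider than among intact males, with an SD of 15.6 against 6.80 CPM for Sox10 and of 1.79 against 1.00 CPM for Tcf7l2. The ratio of Olig1 to Sox10 read counts was 1.06 ± 0.114 (SD, n = 5) in intact males and 0.840 ± 0.0633 (SD, n = 5) in GDX males, with intact male 6 at 0.875 inside the range of GDX males, 0.759 to 0.924.

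Pcdh15 encodes a protocadherin, known from the mechanosensory hair cells of the ear, whose transcript is also a marker of oligodendrocyte precursors (ENSRNOG00000000606). Intact males 1, 2, 3, 5 and 6 had 38.5, 34.0, 37.3, 34.5 and 35.7 CPM. GDX males 1, 2, 4, 5 and 6 had 31.7, 29.7, 32.1, 28.5 and 29.9 CPM. Every intact male thus lay above every GDX male, and the log2 fold change was −0.24 (SE 0.06, adjusted p = 0.0162). The intact males of the shorter-fragment class were the lowest of their group, at 34.0 and 34.5 CPM, and still lay above the highest GDX male. With library class as a term the log2 fold change was −0.17 (adjusted p = 0.194), and with the shorter-fragment libraries alone it was −0.17 (adjusted p = 0.255). With the mature oligodendrocyte level as a term it was −0.26 (adjusted p = 0.106).

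Pdgfra (ENSRNOG00000002244), the growth factor receptor that marks precursors, was at 75.7, 78.4, 76.1, 65.1 and 67.7 CPM in intact males 1, 2, 3, 5 and 6. GDX males 1, 2, 4, 5 and 6 were at 81.5, 81.6, 81.7, 101.3 and 79.8 CPM. The groups did not overlap, 4 of the 5 GDX males lay within 2 CPM of each other, and GDX male 5 stood far above them. The log2 fold change was 0.23 (SE 0.07, adjusted p = 0.0586). The call depended on single rats: the adjusted p was 0.128 without GDX male 5 (log2 fold change 0.16), 0.135 without intact male 5 and 0.126 without intact male 6. The fold change stayed near that size while the call was lost with library class as a term (0.25, adjusted p = 0.187), with the shorter-fragment libraries alone (0.25, adjusted p = 0.227), with the RNA integrity number (0.21, adjusted p = 0.168) and with the mature oligodendrocyte level (0.23, adjusted p = 0.244). With the level of fibroblast markers as a term, described below, the log2 fold change of Pdgfra did not stay, at −0.03 (adjusted p = 0.975). Of the 10 genes, 2, Pcdh15 and Pdgfra, showed no overlap of CPM between GDX and intact males, against 7.47% of all genes tested.

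The windows around the start sites of Pcdh15 and Pdgfra are shown as those of the genes free of overlap between GDX and intact males. E-boxes, the motif CANNTG of basic helix-loop-helix factors, are marked in them, and what controls these genes was not tested. Sequences are from RefSeq on GRCr8, 250 bases before to 50 after the start of each gene, 5′ to 3′ on the gene's strand, whereas the reads had been counted on the older build Rnor_6.0. The Pcdh15 window is at chr20:14824749-14825048 on the minus strand, and the Pdgfra window at chr14:33408467-33408766 on the minus strand. Capitals mark matches to CANNTG, which reads the same on both strands.
Pcdh15: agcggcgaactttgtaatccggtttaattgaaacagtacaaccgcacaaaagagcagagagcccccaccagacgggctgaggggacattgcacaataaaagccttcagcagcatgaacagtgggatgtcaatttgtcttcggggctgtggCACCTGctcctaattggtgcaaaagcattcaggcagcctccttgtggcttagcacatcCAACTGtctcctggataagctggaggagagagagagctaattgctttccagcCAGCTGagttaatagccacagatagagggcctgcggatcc
Pdgfra: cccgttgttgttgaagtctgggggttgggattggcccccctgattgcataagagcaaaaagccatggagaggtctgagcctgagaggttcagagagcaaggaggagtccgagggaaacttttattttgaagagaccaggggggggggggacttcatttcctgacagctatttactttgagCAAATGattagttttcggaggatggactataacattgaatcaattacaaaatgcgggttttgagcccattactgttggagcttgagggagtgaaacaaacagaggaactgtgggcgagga
The Pcdh15 window held 3 matches and the Pdgfra window 1. Among all 33469 promoter windows of this length in the table, 72.1% held at least 1 match and 16.6% at least 3. Entries were found for 7 of the 10 genes, which were those other than Olig1, Sox10 and Bcas1. The windows of Olig2, Cspg4, Gpr17 and Tcf7l2 held 0 matches and that of Enpp6 held 2. The hexamer TGTTCT of steroid receptor response elements, or AGAACA on the other strand, was in 0 of the 7 windows and in 20.7% of all windows. The Sox motif AACAAT, or ATTGTT, was in the Tcf7l2 window and in 11.7% of all windows.

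Cspg4, the NG2 proteoglycan of precursors and of pericytes, lay between 34.1 and 39.2 CPM in intact males and between 30.9 and 40.4 CPM in GDX males (log2 fold change −0.05, SE 0.08, adjusted p = 0.733). Gpr17, the receptor of the stage between precursor and myelinating cell, lay between 16.2 and 19.1 CPM in intact males and between 15.8 and 18.7 CPM in GDX males (log2 fold change −0.02, SE 0.07, adjusted p = 0.924). So of the 4 genes for surface proteins of precursors and committed cells, Pcdh15 fell, Pdgfra rose, and Cspg4 and Gpr17 overlapped across most of their ranges.

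The genes of cells that begin to make myelin did not pass the test. Bcas1 spanned 740.1 to 864.8 CPM in intact males and 767.6 to 875.9 CPM in GDX males (log2 fold change 0.03, SE 0.05, adjusted p = 0.818). Enpp6, expressed at the onset of myelination, spanned 58.7 to 69.2 CPM in intact males and 53.4 to 85.7 CPM in GDX males (log2 fold change 0.11, SE 0.10, adjusted p = 0.543). The Enpp6 range of GDX males enclosed that of intact males.

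**Figure D2:**
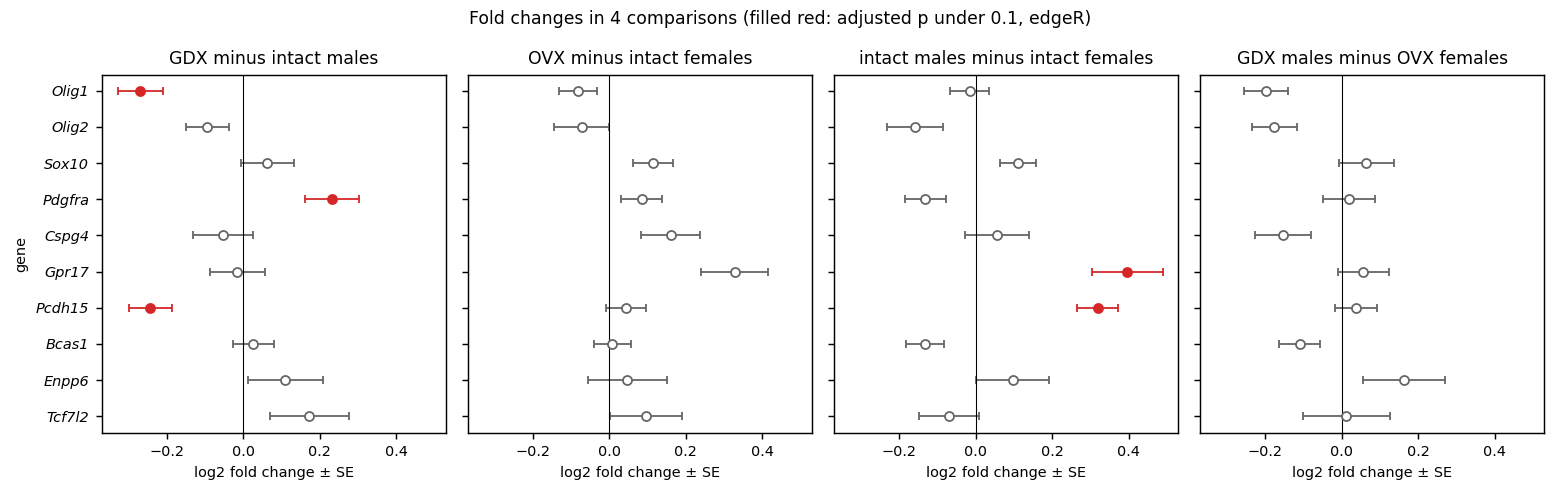
Log2 fold change (horizontal axis) with its SE for each of the 10 genes in 4 comparisons, with filled red points for an adjusted p under 0.1. Red points are Olig1, Pdgfra and Pcdh15 in GDX against intact males, and Gpr17 and Pcdh15 in intact males against intact females.

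Markers of other cell types moved with removal of the testes as well. Of the markers of meninges and fibroblasts, cells that can also express Pdgfra, 10 of 10 tested were higher in GDX males (median log2 fold change 1.59, against 0.00 over all genes tested). Their summed level was 233.3, 173.7, 175.2, 130.2 and 96.7 CPM in intact males 1, 2, 3, 5 and 6, and 226.0, 345.9, 469.1, 631.6 and 514.2 CPM in GDX males 1, 2, 4, 5 and 6. GDX male 5, the rat with the highest Pdgfra, also had the highest fibroblast marker sum. The marker with the most reads was Col1a1, a chain of type I collagen, with means of 33.4 CPM in intact and 116.7 CPM in GDX males, and no marker on the list had 0 reads in all rats. With the fibroblast level as a term in the model, the log2 fold change of Pdgfra was −0.03 (adjusted p = 0.975), that of Olig1 −0.28 (adjusted p = 0.782) and that of Pcdh15 −0.22 (adjusted p = 0.809). In that fit 1 of 14931 genes was called. The mean log2 CPM of the fibroblast list did not overlap between the groups, at 2.25 to 3.21 in intact males and 3.45 to 4.79 in GDX males. The fit could therefore hardly tell the fibroblast level apart from removal of the testes.

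Endothelial markers were higher in GDX males for 8 of 8 tested (median log2 fold change 0.52), with a summed mean of 192.2 CPM in intact and 270.8 CPM in GDX males and the most reads on Abcb1a. Ly6c, on the same list, had 0 reads in all rats. Markers of pericytes and vascular smooth muscle were higher for 5 of 10 tested (median 0.48), with the most reads on Myh11 and summed means of 134.2 CPM in intact and 175.9 CPM in GDX males. Schwann cell markers were higher for 2 of 9 tested by edgeR and for 0 by DESeq2 (median 0.81, and 1.27 without intact male 3). Fa2h, with the most reads of that list, is also expressed by oligodendrocytes. Astrocyte markers were higher for 2 and lower for 1 of 10 tested, with the most reads on Gfap. General neuronal markers were lower for 4 of 10 tested (median −0.19), and Nefm, with the most reads of that list, was not called (adjusted p = 0.172). Motor neuron markers were lower for 3 of 10 (median −0.28), among them Nefh, with the most reads of that list (adjusted p = 0.0825). The motor neuron median was −0.08 without intact male 6 and −0.07 with the shorter-fragment libraries alone. Microglia, ependymal and dorsal horn markers had 0 genes called of 9, 6 and 5 tested, with 1, 0 and 0 genes at an unadjusted p under 0.05 and 1, 0 and 0 called by DESeq2. The part of these cell types in the changes of Olig1 and Pcdh15 was not tested, since the fit with the fibroblast level could hardly separate that level from removal of the testes.

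**Figure D3:**
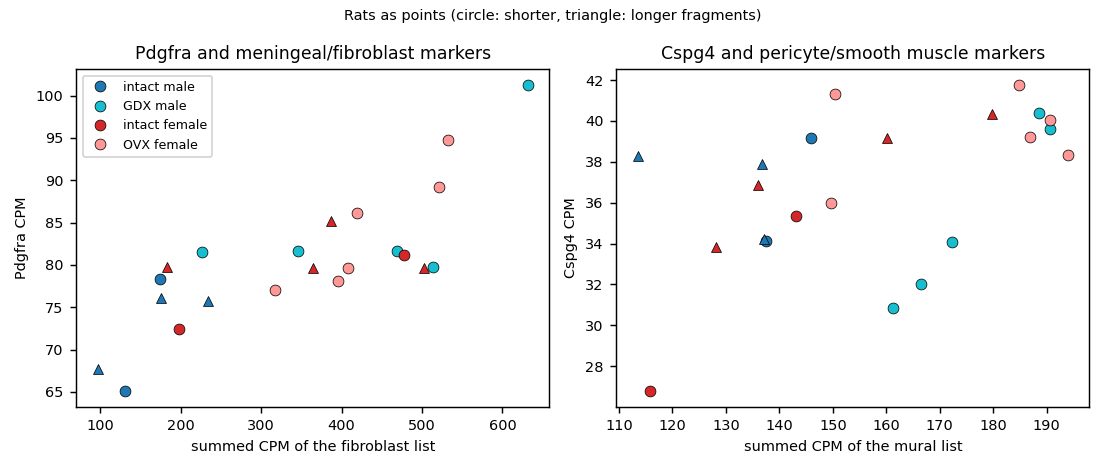
CPM of Pdgfra against the summed CPM of the fibroblast list (left), and CPM of Cspg4 against that of the pericyte and smooth muscle list (right). The sums are on the horizontal axes. Points are rats coloured by group, with circles for shorter-fragment and triangles for longer-fragment libraries. The fibroblast sum spans 96.7 to 233.3 CPM in intact males and 226.0 to 631.6 CPM in GDX males.

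Over the 9 lists of other genes of the lineage and its regulation, 15 of 99 genes tested were called after removal of the testes, or 15.2%, beside 13.4% of all genes tested. All 15 kept their sign with the shorter-fragment libraries alone, and 3 of them, Apcdd1, Erbb3 and Ermn, were still called. That fit holds the same GDX males and 2 of the same intact males, so the kept signs are no separate evidence. Of 12 other precursor genes tested, such as Ptprz1 and Vcan, 0 were called, and their median log2 fold change was 0.02. Of 10 other genes of newly formed oligodendrocytes and of 12 regulators of differentiation, among them Myrf, 0 were called, with medians of 0.01 and 0.05. In these 3 lists 2, 3 and 3 genes had an unadjusted p under 0.05, and DESeq2 called 0 in each. Receptors of steroid and thyroid hormones also had 0 of 9 called, with 1 at an unadjusted p under 0.05 and 0 called by DESeq2.

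Inhibitors of differentiation were lower for 3 and higher for 1 of 11 tested (median 0.03). Lingo1, a surface protein that restrains myelination, fell by 0.27 on the log2 scale (SE 0.07, adjusted p = 0.0221), from a mean of 38.4 CPM in intact males to 31.9 CPM in GDX males. Rnf43 fell by 0.22 (SE 0.07, adjusted p = 0.0780) and Gpr37 by 0.13 (SE 0.04, adjusted p = 0.0807). Bmp4, which steers precursors away from the oligodendrocyte fate, rose by 0.22 (SE 0.07, adjusted p = 0.0611). From the shorter-fragment libraries alone the values were −0.30 for Lingo1 (adjusted p = 0.142), −0.33 for Rnf43 (adjusted p = 0.107), −0.12 for Gpr37 (adjusted p = 0.340) and 0.22 for Bmp4 (adjusted p = 0.279).

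Wnt partners and targets of Tcf7l2 were higher for 4 and lower for 0 of 10 tested, and their median log2 fold change was 0.16. Apcdd1, an inhibitor and target of Wnt signalling, rose by 0.58 (SE 0.07, adjusted p = 0.00152), from 15.4 ± 1.32 to 23.1 ± 1.29 CPM (SD, n = 5 each). Axin2, another target, rose by 0.22 (SE 0.07, adjusted p = 0.0603), Lef1 by 0.35 (SE 0.12, adjusted p = 0.0893) and Ctnnb1 by 0.16 (SE 0.05, adjusted p = 0.0888). Shorter-fragment libraries alone gave 0.50 for Apcdd1 (adjusted p = 0.0857), 0.14 for Axin2 (adjusted p = 0.461), 0.18 for Lef1 (adjusted p = 0.581) and 0.20 for Ctnnb1 (adjusted p = 0.192). Several of these genes are also expressed by endothelial and meningeal cells, whose markers moved the same way, and their part in these changes was not tested.

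Growth factors and receptors that act on precursors were higher for 1 and lower for 2 of 12 tested (median −0.06). Igf1, a survival and growth factor, doubled in GDX males, a change of 1.01 in log2 (SE 0.24, adjusted p = 0.0200), with levels of 2.04 to 5.33 CPM in intact and 5.45 to 12.6 CPM in GDX males. The neuregulin receptor Erbb3 fell by 0.23 (SE 0.06, adjusted p = 0.0280) and Fgfr3, which is also an astrocyte marker, by 0.15 (SE 0.05, adjusted p = 0.0871). In the fit of shorter-fragment libraries Igf1 changed by 0.78 (adjusted p = 0.164), Erbb3 by −0.30 (adjusted p = 0.0859) and Fgfr3 by −0.14 (adjusted p = 0.317).

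Mature oligodendrocyte genes were higher for 2 of 12 tested (median 0.09): Ermn rose by 0.24 (SE 0.05, adjusted p = 0.0133) and Mbp, the gene of myelin basic protein, by 0.17 (SE 0.05, adjusted p = 0.0670). With the shorter-fragment libraries alone these were 0.28 (adjusted p = 0.0959) and 0.21 (adjusted p = 0.148). Cell cycle genes were higher for 2 of 11 tested (median 0.24, and 0.14 without GDX male 4). These were Ccnd1, which drives entry into the cycle and rose by 0.27 (SE 0.05, adjusted p = 0.00949), and Top2a, expressed by dividing cells, which rose by 0.59 (SE 0.16, adjusted p = 0.0358). In the shorter-fragment libraries Ccnd1 changed by 0.29 (adjusted p = 0.108) and Top2a by 0.62 (adjusted p = 0.179). Which cells these transcripts came from was not measured.

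**Figure D4:**
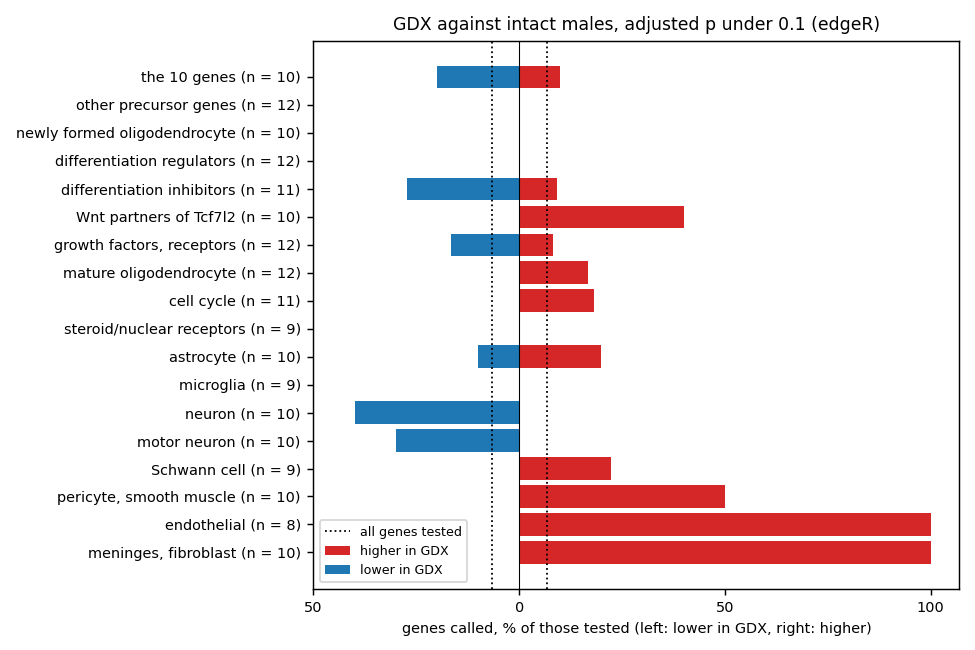
Percent of the tested genes of each list called lower (left, blue) or higher (right, red) in GDX than in intact males at an adjusted p under 0.1, with dotted lines for all genes tested (6.58% lower and 6.78% higher). Fibroblast and endothelial markers are called throughout, and the lists of other precursor genes, newly formed oligodendrocytes and regulators have no call.

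In females, removal of the ovaries left 0 of the 10 genes called with 6 rats per group (edgeR quasi-likelihood test), against 0.0335% of the 14910 genes tested (0.0268% higher, 0.00671% lower). An unadjusted p under 0.05 was reached by 2 of the 10 genes, Gpr17 and Sox10, and by 10.2% of all genes. DESeq2 called 1 of the 10, Gpr17, and 164 of the 14910 genes tested.

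Gpr17 (ENSRNOG00000025745) ranged from 10.1 to 15.1 CPM in intact females, with a median of 13.96, and from 15.5 to 18.1 CPM in OVX females, with a median of 16.8. Every OVX female lay above every intact female. Of the 10 genes, 1 showed such a separation, against 0.543% of all genes tested. Its log2 fold change was 0.33 (SE 0.09, unadjusted p = 0.00163, adjusted p = 0.211), and DESeq2 gave an adjusted p of 0.0685. With the shorter-fragment libraries alone the fold change was 0.44 (adjusted p = 0.585). Over all alternative settings for this result the adjusted p lay between 0.0685 and 0.585.

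Sox10 had a median of 120.7 CPM in intact females (107.5 to 128.9) and of 130.4 CPM in OVX females (116.4 to 143.9), a change of 0.11 in log2 (SE 0.05, adjusted p = 0.477). Olig1, called in males, had medians of 138.1 CPM (123.7 to 147.5) and 129.7 CPM (115.7 to 138.7), and its log2 fold change was −0.08 (SE 0.05, adjusted p = 0.614). Pcdh15 medians were 29.0 CPM (26.6 to 30.8) in intact and 29.7 CPM (27.2 to 31.8) in OVX females, a change of 0.04 in log2 (SE 0.05, adjusted p = 0.847). For Olig1 and Pcdh15 the OVX and intact females overlapped over most of their ranges.

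Pdgfra had medians of 79.7 CPM (72.4 to 85.1) in intact females and 82.9 CPM (76.98 to 94.7) in OVX females, a change of 0.08 in log2 (SE 0.05, adjusted p = 0.633). The other 5 genes, Olig2, Cspg4, Bcas1, Enpp6 and Tcf7l2, had adjusted p-values between 0.499 and 0.979. Fold changes of Olig1, Olig2 and Bcas1 changed sign with the shorter-fragment libraries alone, and the cause was not tested.

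No list of the lineage had a gene called in OVX females by edgeR. Wnt partners had the highest count at an unadjusted p under 0.05, 5 of 10, and a median of 0.14 in log2 fold change, and DESeq2 called 1. Other precursor genes had 3 of 12 at that level and a median of 0.00, newly formed oligodendrocyte genes 1 of 10 and 0.07, regulators 0 of 12 and 0.03, and inhibitors 1 of 11 and −0.03, and DESeq2 called 0 in these 4 lists. Growth factors and receptors had 2 of 12 and −0.03 with 1 called by DESeq2, mature genes 2 of 12 and 0.05 with 0, cell cycle genes 2 of 11 and 0.10 (0.28 without intact female 3 and 0.04 without intact female 4) with 1, and hormone receptors 1 of 9 and 0.01 with 0. Fibroblast markers had 0 of 10 at that level, a median of 0.28 (0.17 without intact female 2) and 0 called by DESeq2, with sums of 183.4 to 502.3 CPM in intact and 317.3 to 532.7 CPM in OVX females. Endothelial markers had 8 of 8 at that level, a median of 0.49, 1 call by edgeR and 3 by DESeq2. Motor neuron markers had 7 of 10 at that level (median −0.33), neuronal markers 6 of 10 (median −0.12), astrocyte markers 4 of 10 (median 0.02) and markers of pericytes and smooth muscle 4 of 10 (median 0.26), with 0 called by edgeR and 2, 2, 1 and 1 by DESeq2. With the shorter-fragment libraries alone the motor neuron median was −0.14. Schwann cell, microglia, ependymal and dorsal horn markers had 0, 3, 0 and 1 at that level and 0 called by either tool.

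The difference between the responses of males and females was tested as an interaction over all 22 rats. It called 0 of the 10 genes by edgeR, against 0.116% of the 15562 genes tested (0.0900% positive, 0.0257% negative), while 3 of the 10 had an unadjusted p under 0.05, against 11.6% of all genes. DESeq2 called 1 of the 10, Pcdh15, and 234 of the 15562 genes tested. The change of Pcdh15 in males minus that in females was −0.28 on the log2 scale (SE 0.07, unadjusted p = 0.000820, adjusted p = 0.144). DESeq2 gave an adjusted p of 0.0737 for it, edgeR without GDX male 1 gave 0.0787, and over all settings the adjusted p ran up to 0.761. Gpr17 differed by −0.34 (SE 0.11, unadjusted p = 0.00644, adjusted p = 0.224) and Olig1 by −0.18 (SE 0.08, unadjusted p = 0.0305, adjusted p = 0.363). For Pdgfra the difference was 0.15 (SE 0.09, adjusted p = 0.546). The calls of Olig1 and Pdgfra in males and not in females were therefore not shown to differ between the sexes. In no list of lineage genes did the interaction call a gene by edgeR or DESeq2, and the numbers at an unadjusted p under 0.05 were 1 of 12 other precursor genes, 2 of 10 newly formed oligodendrocyte genes, 0 of 12 regulators, 3 of 12 inhibitors, 1 of 10 Wnt partners, 2 of 12 growth factors and receptors, 1 of 12 mature genes, 1 of 11 cell cycle genes and 0 of 9 hormone receptors. Among markers of other cells, fibroblast markers had a median of 1.24 with 8 of 10 at that level and 3 called by DESeq2, and Schwann cell markers a median of 0.92 with 6 of 9 at that level and 0 called by DESeq2. Medians of the endothelial, pericyte and smooth muscle, astrocyte, microglia, neuronal and motor neuron lists were 0.01, 0.07, 0.06, 0.07, −0.09 and 0.12, with 1, 1, 2, 0, 2 and 0 genes at that level and 1, 0, 1, 0, 0 and 0 called by DESeq2. The motor neuron median was 0.33 without intact male 6. Ependymal and dorsal horn markers had medians of −0.19 and −0.22, with 0 at that level and 0 called by DESeq2, and these ran from −0.40 to −0.03 and from −0.48 to 0.14 on leaving out single rats. By edgeR 0 genes of these lists were called.

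Between the sexes with the gonads in place, Pcdh15 and Gpr17 were higher in males. Intact males had 24.8% more Pcdh15 and 31.6% more Gpr17 than intact females, and no gene of the 10 was called lower. The 2 genes called were set against 4.01% of the 14937 genes tested in 5 males and 6 females (1.45% higher and 2.56% lower in males), and 6 of the 10 had an unadjusted p under 0.05, against 15.5% of all genes. The intact males are the same rats that served as controls for GDX males, so both comparisons share them, and the values are given side by side.

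Pcdh15 was between 34.0 and 38.5 CPM in intact males, with the single values given above, and between 26.6 and 30.8 CPM in intact females, median 29.0. All males lay above all females (log2 fold change 0.32, SE 0.05, adjusted p = 0.00651). The 5 intact males in fact lay above all 17 other rats, whose highest value was the 32.1 CPM of GDX male 4. This held for 1 of the 10 genes, Pcdh15, and for 0.218% of 15562 genes. Beside the log2 fold change of −0.24 in GDX against intact males, GDX males differed from OVX females by 0.04 (SE 0.06, adjusted p = 0.882).

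Gpr17 was at 16.2, 18.7, 19.1, 17.1 and 17.4 CPM in intact males 1, 2, 3, 5 and 6 and between 10.1 and 15.1 CPM in intact females. GDX males 1, 2, 4, 5 and 6 had 18.7, 17.6, 17.1, 18.2 and 15.8 CPM. Intact females thus had the lowest Gpr17 of the 4 groups, but the margin was small: their highest value was 15.1 CPM and the lowest OVX female had 15.5 CPM. The share of all genes with intact females below all other rats was not computed. The log2 fold change between intact males and intact females was 0.40 (SE 0.09, adjusted p = 0.0343). Of the 10 genes, 2, Pcdh15 and Gpr17, did not overlap between intact males and females, against 2.67% of all genes tested. Neither call held with the 4 shorter-fragment intact libraries alone, 2 of each sex, where the fold changes were 0.28 for Pcdh15 (adjusted p = 0.359) and 0.52 for Gpr17 (adjusted p = 0.364). With the fibroblast level as a term they were 0.36 (adjusted p = 0.244) and 0.31 (adjusted p = 0.709), and neither was called. The mean log2 CPM of the fibroblast list did not overlap between these groups, at 2.25 to 3.21 in intact males and 3.25 to 4.48 in intact females. That fit could therefore hardly tell the fibroblast level apart from sex.

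The remaining 8 genes were not called between intact males and females. Bcas1 came nearest, with 740.1 to 864.8 CPM in males and 803.7 to 943.5 CPM in females (log2 fold change −0.13, SE 0.05, adjusted p = 0.198). Log2 fold changes were −0.13 for Pdgfra (adjusted p = 0.245), 0.11 for Sox10 (adjusted p = 0.260), −0.16 for Olig2 (adjusted p = 0.307) and −0.01 for Olig1 (adjusted p = 0.929). Of the other lineage lists, growth factors and receptors had 2 of 12 called. Igf1 was lower in intact males with −1.08 as the log2 fold change (SE 0.29, adjusted p = 0.0664), and Fgfr2 was higher by 0.12 (SE 0.03, adjusted p = 0.0603). Both kept their sign and were not called with the shorter-fragment libraries alone (−0.86 and 0.16, adjusted p = 0.510 and 0.412). The lists of other precursor genes, newly formed oligodendrocytes, regulators, inhibitors, Wnt partners, mature genes, cell cycle genes and hormone receptors had 0 called by edgeR, with 4, 2, 2, 1, 3, 1, 1 and 1 at an unadjusted p under 0.05 and 1, 2, 0, 0, 0, 0, 0 and 1 called by DESeq2. Fibroblast markers were lower in intact males for 7 of 10 tested (median −1.23), with sums of 96.7 to 233.3 CPM in males and 183.4 to 502.3 CPM in females. Schwann cell markers were lower for 4 of 9 (median −0.77, and −1.23 without intact male 3). Of the other cell types, 1 of 8 endothelial and 1 of 10 astrocyte markers were lower and 1 of 10 neuronal markers was higher (medians −0.12, −0.07 and 0.07). On leaving out single rats these medians ran from −0.23 to −0.04, from −0.10 to −0.04 and from 0.04 to 0.08. Microglia, pericyte and smooth muscle, motor neuron, ependymal and dorsal horn markers had 0 called by edgeR, with 4, 1, 1, 0 and 2 at an unadjusted p under 0.05 and 1, 0, 0, 0 and 0 called by DESeq2.

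Between GDX males and OVX females, all from shorter-fragment libraries, 0 of the 10 genes were called by edgeR, against 0.232% of 15084 genes. DESeq2 called 1 of the 10, Olig1, and 130 of the 15084 genes. An unadjusted p under 0.05 was reached by 2 of the 10, Olig1 and Olig2, and by 9.37% of all genes. Olig1 was at 112.6 ± 8.63 CPM in GDX males (SD, n = 5) and at 129.4 ± 8.79 CPM in OVX females (SD, n = 6), a change of −0.20 in log2 (SE 0.06, unadjusted p = 0.00320, adjusted p = 0.316). DESeq2 gave an adjusted p of 0.0997 for it. Olig2 was at 47.1 ± 2.55 and 53.3 ± 4.12 CPM, a change of −0.18 in log2 (SE 0.06, unadjusted p = 0.00839, adjusted p = 0.349). None of the 10 genes was free of overlap between these groups, against 1.35% of all genes tested.

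The class of the library was compared within the 11 intact rats, with sex as a term. It called 0 of the 10 genes by edgeR, against 0.00669% of 14937 genes, and 0 by DESeq2, which called 53 of the same 14937 genes. Of the 10, 0 had an unadjusted p under 0.05, against 7.71% of all genes. The longer-fragment libraries differed by a log2 fold change of 0.08 for Pcdh15 (SE 0.05, adjusted p = 0.789), 0.06 for Olig1 (SE 0.05, adjusted p = 0.826) and 0.05 for Pdgfra (SE 0.06, adjusted p = 0.886). On leaving out single rats these values ran from 0.05 to 0.12 for Pcdh15, from 0.02 to 0.10 for Olig1 and from 0.01 to 0.11 for Pdgfra. For Pcdh15 and Olig1 the class difference had the same sign as intact against GDX males. Motor neuron markers were the list that moved most with class by unadjusted p: 10 of 10 were positive in longer-fragment libraries (median 0.37), with 8 at an unadjusted p under 0.05, 0 called by edgeR and 2 by DESeq2. Neuronal markers had 5 of 10 at that level (median 0.03), 0 called by edgeR and 1 by DESeq2. No GDX or OVX library was of the longer-fragment class.

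Ratios of read counts within a library show the genes against each other without scaling between rats. The ratio of Pcdh15 to Pdgfra was 0.508, 0.434, 0.491, 0.530 and 0.527 in intact males 1, 2, 3, 5 and 6, and 0.390, 0.364, 0.393, 0.282 and 0.374 in GDX males 1, 2, 4, 5 and 6. It ran from 0.348 to 0.386 in intact females, median 0.363, and from 0.304 to 0.386 in OVX females, median 0.356. Intact males lay above all other rats, and the means of the other 3 groups lay between 0.354 and 0.363. The ratio of Gpr17 to Pdgfra was 0.245 ± 0.0194 in intact males (SD, n = 5) and 0.207 ± 0.0186 in GDX males (SD, n = 5). It was 0.170 ± 0.0283 in females with ovaries and 0.201 ± 0.0245 in OVX females (SD, n = 6 each). These ratios follow from the same reads as the fold changes and were given no test of their own. Pcdh15 and Pdgfra each had no overlap between GDX and intact males, in opposite directions, so their ratio had to separate those groups.

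**Figure D5:**
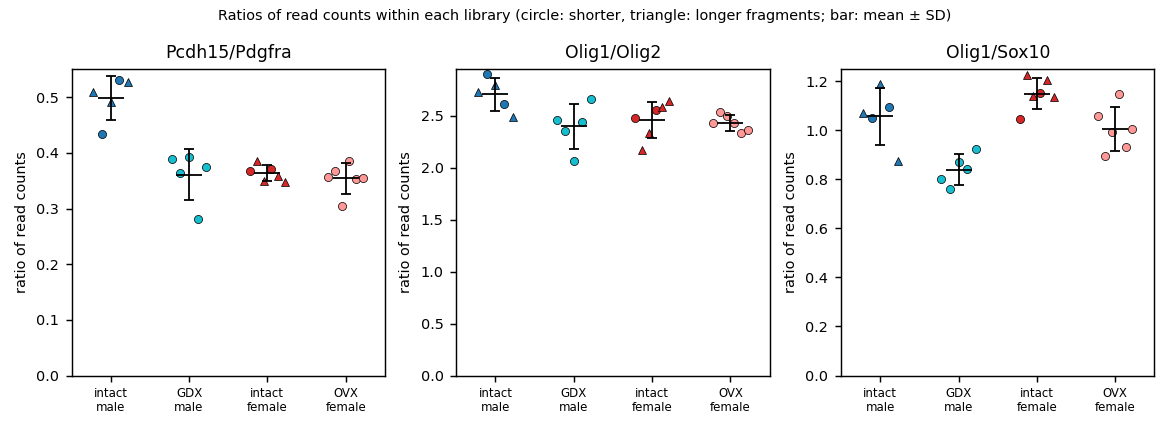
Ratios of read counts (vertical axes, from 0) within each library for Pcdh15 to Pdgfra, Olig1 to Olig2 and Olig1 to Sox10, by group, with the mean and SD. For Pcdh15 to Pdgfra the intact males sit between 0.434 and 0.530, above the highest other rat at 0.393.

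The 10 genes did not vary as a block among rats of the same group. After the group means were removed from log2 CPM, 26 of the 45 pairs of genes had a positive Pearson r across the 22 rats, with a median of 0.05 and a range of −0.54 to 0.72. Each pair was tested by permuting rats within groups 100000 times, along with 3 relations to marker lists of other cells that express a member, 48 relations in all. Of these, 5 had an adjusted p under 0.1.

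Among the genes themselves, Sox10 and Cspg4 varied together, with r = 0.72 (permutation p = 0.00048, adjusted 0.00768) and Spearman's rho = 0.68 (p = 0.00244, adjusted 0.0390). Without the 2 rats farthest from the median of Sox10, r was 0.68. It was 0.85 in the 15 shorter-fragment and 0.41 in the 7 longer-fragment libraries. The neighbouring genes Olig1 and Olig2 had r = 0.63 (permutation p = 0.0023, adjusted 0.0224) and rho = 0.68 (p = 0.00158, adjusted 0.0379). Without the 2 rats farthest in Olig1, r was 0.68, and it was 0.61 in the shorter-fragment and 0.50 in the longer-fragment libraries.

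The 3 relations to markers of other cells, picked because those cells express the member, were also among the 5. Pdgfra followed the mean log2 CPM of the fibroblast list, with r = 0.70 (permutation p = 0.00047, adjusted 0.00768) and rho = 0.70 (p = 0.00079, adjusted 0.0379). Without the 2 rats farthest in Pdgfra r was 0.64, and by library class it was 0.76 and 0.66 in shorter- and longer-fragment libraries. Cspg4 followed the list of pericytes and vascular smooth muscle, with r = 0.77 (permutation p = 0.00035, adjusted 0.00768) and rho = 0.65 (p = 0.0044, adjusted 0.0528), and with r = 0.62 without 2 rats and 0.77 and 0.68 by class. Sox10 ran against the Schwann cell list, with r = −0.59 (permutation p = 0.00233, adjusted 0.0224) and rho = −0.55 (p = 0.016, adjusted 0.146), and with r = −0.48 without 2 rats and −0.79 and −0.91 by class. All 3 relations kept their sign in both library classes. Relations to the other lists were computed without a test. Of these, r reached 0.6 in size with lists of other cells for Gpr17 with endothelial markers (0.75) and with markers of pericytes and smooth muscle (0.63), for Tcf7l2 with neuronal markers (−0.70), for Cspg4 with endothelial (0.63) and fibroblast markers (−0.61), and for Sox10 with fibroblast markers (−0.60).

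The genes most like each member among rats of the same group were picked for the highest r out of 15561 other genes, so their r describes the choice and carries no test. For Pdgfra they were Colec12, Kank2 and Eya1, with r of 0.82, 0.82 and 0.81. For Cspg4 they were Prex1, Mast3 and Notum, with r of 0.88, 0.84 and 0.83, and for Gpr17 Socs2, Nlrc5 and Lipe, with r of 0.90, 0.84 and 0.82. Pcdh15 had lower values, with Eif4ebp3, Mrpl1 and Sgk2 at 0.76, 0.76 and 0.73. For the transcription factors the leading genes were Siah3 for Olig1 (r = 0.85), Slc29a3 for Olig2 (r = 0.90), Agap1 for Sox10 (r = 0.86) and Tmem159 for Tcf7l2 (r = 0.79). Slc30a4 led for Bcas1 (r = 0.82) and Jmjd7 for Enpp6 (r = 0.74). None of the leading genes was another of the 10.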

How the data were processed

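RNA of the ventral cervical cord of 22 rats was analysed as 1 library per rat. The authors trimmed and mapped the reads to Rnor_6.0 and deposited raw counts per gene made with featureCounts, without normalization. Their paper names Trimmomatic, Hisat2 and a SMARTer kit, whereas the notes deposited with the samples name TopHat2 2.0.13 and TruSeq, and this discrepancy could not be settled here. Libraries held 12371756 to 17571887 counted reads, and 24689 of 32883 genes had any count. At the lowest member count, 138 reads, the sampling of reads alone gives an error of 8.51%.

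Rats were grouped by sex and gonads as labelled. Counts were compared in R 4.3.3 with edgeR 4.0.16 (limma 3.58.1): its filter on low counts, TMM scaling, quasi-likelihood tests and Benjamini-Hochberg adjustment over all genes tested, at a level of 0.1. The comparisons were GDX against intact males, OVX against intact females, their interaction, males against females with and without gonads, and library class among intact rats with sex as a term. Alternatives were DESeq2 1.42.0, RLE size factors, no filter on low counts, the rat number as a block, a single fit of all 22 rats, library class as a term, shorter-fragment libraries only, the RNA integrity number, fibroblast level or mature oligodendrocyte level as a term, and each rat left out in turn. The pipeline was tested on simulated data. Log2 CPM used a prior count of 2, and relations between genes were tested by permutation within groups.

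The 10 members, and the gene lists, were chosen with earlier results of these data known. Lists covered other precursor genes, newly formed oligodendrocytes, regulators and inhibitors of differentiation, Wnt partners, growth factors and receptors, mature oligodendrocytes, the cell cycle, hormone receptors, fibroblasts, pericytes and smooth muscle, Schwann cells, astrocytes, microglia, endothelium, neurons, motor neurons, ependyma and dorsal horn. All members are named in the text. From the lineage lists, genes with an adjusted p under 0.1 are named, at most 4 per list and comparison by smallest p. From lists of other cells, the gene with the most reads and markers at 0 are named. As genes of like pattern, up to 3 per member are named. Listed genes absent from the table were not analysed here: Lhfpl3, Tmem2, Rnf122, Axin1, Ccnb2, Nr3c1, Col1a2, Pecam1, Foxj1 and Tac2.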

Additional observations from a re-analysis of the deposited data

Results flagged for a closer look

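Single rats stood far from the rest of their group in 6 of the 116 groups of values searched with Dixon's test, and chance gives about 1 in 20 groups. Of the 10 genes only Pdgfra held such a rat: GDX male 5, at 101.3 CPM, with the other GDX males at 79.8 to 81.7 CPM. The other 5 were sums of marker lists. Other precursor genes summed to 665.8 CPM in OVX female 5 (706.6 to 728.8 in the others), and newly formed oligodendrocyte genes to 678.3 CPM in intact female 4 (735.5 to 751.5). Mature oligodendrocyte genes summed to 24074 CPM in OVX female 4 (26256 to 27471), and markers of pericytes and vascular smooth muscle to 113.5 CPM in intact male 1 (136.8 to 145.8). Dorsal horn markers summed to 18.5 CPM in intact female 4 (12.5 to 14.2), the rat that also stood apart for newly formed oligodendrocyte genes. What set these rats apart was not tested.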

How the results depend on the processing

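For GDX against intact males, 3 of the 10 genes were called. With library class as a term this was 1, with the shorter-fragment libraries only 0, with the fibroblast level as a term 0 and with the mature oligodendrocyte level as a term 1. All genes called, 1995 in the fit of the report, were 796, 440, 1 and 255 in these fits, and 1262 with the RNA integrity number as a term. Leaving out each rat in turn gave 1202 to 2446 genes and 2 to 3 of the 10. In the fit with the fibroblast level, fold changes of Pdgfra (−0.0322), Cspg4 (0.21) and Gpr17 (0.00862) changed sign. The mean log2 CPM of the fibroblast list did not overlap between GDX and intact males, so that fit could hardly separate it from removal of the testes. Ranges on leaving out a rat crossed 0 for Gpr17 (−0.0467 to 0.0193) and Bcas1 (−0.00403 to 0.0503). Wide ranges that did not cross 0 were those of Enpp6 (0.0130 to 0.188), Sox10 (0.00654 to 0.114), Tcf7l2 (0.10 to 0.23) and Cspg4 (−0.107 to −0.0079).

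For OVX against intact females, DESeq2 called 1 of the 10 genes and 164 of all genes, against 0 and 5. All genes called were 11 with no filter on low counts, 9 with all 22 rats in 1 fit, 3 with library class, 11 with the RNA integrity number, 9 with the fibroblast level and 10 with the mature oligodendrocyte level as a term, and 0 to 113 on leaving out a rat. Signs changed with library class as a term for Olig1 (0.00596), Olig2 (0.0554) and Bcas1 (−0.0331), and with the shorter-fragment libraries only for the same genes (0.0022, 0.0517 and −0.0366). They also changed with the fibroblast level for Bcas1 (−0.0115) and Enpp6 (−0.0486), and with the mature level for Bcas1 (−0.0179) and Tcf7l2 (−0.0225). Ranges on leaving out a rat were −0.0231 to 0.031 for Bcas1 and −0.0156 to 0.11 for Enpp6.

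In the interaction, DESeq2 called 1 of the 10 genes and 234 of all genes, against 0 and 18. All genes called were 33 with no filter, 6 with library class, 5 with the shorter-fragment libraries, 5 with the RNA integrity number and 1 with the fibroblast level. Leaving out a rat gave 1 to 275 genes and 0 to 1 of the 10. The fibroblast level changed the sign for Olig2 (0.11), Sox10 (0.11), Pdgfra (−0.036), Bcas1 (−0.0113) and Enpp6 (−0.0751), and the shorter-fragment libraries did so for Enpp6 (−0.12) and Tcf7l2 (−0.0119). Ranges on leaving out a rat crossed 0 for Olig2 (−0.0785 to 0.0205), Sox10 (−0.10 to 0.00313), Bcas1 (−0.00686 to 0.0533) and Enpp6 (−0.0268 to 0.15).

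Between intact males and females, 2 of the 10 genes were called, and 0 with the shorter-fragment libraries only and 0 with the fibroblast level as a term. All genes called, 599 before, were 34 and 20 in these fits and 352 to 777 on leaving out a rat. The shorter-fragment libraries changed the sign for Olig1 (0.0768) and Tcf7l2 (0.0243), and the fibroblast level for Sox10 (−0.0143), Pdgfra (0.015) and Cspg4 (−0.11). Leaving out a rat gave −0.0433 to 0.0222 for Olig1 and −0.0108 to 0.0962 for Cspg4. Between GDX males and OVX females DESeq2 called 1 of the 10 genes and 130 of all genes, against 0 and 35, all 22 rats in 1 fit gave 61 genes, the fibroblast level 137, and leaving out a rat 23 to 44. The mature level changed the sign of Pdgfra (−0.0427) and Tcf7l2 (−0.16), and leaving out a rat gave −0.0468 to 0.0578 and −0.0576 to 0.0788. For library class among intact rats, where 1 gene was called, DESeq2 called 53, no filter 210, the RNA integrity number 0, the fibroblast level 2, the mature level 2 and leaving out a rat 0 to 2. Leaving out a rat gave −0.0155 to 0.0898 for Sox10, −0.045 to 0.15 for Gpr17 and −0.0765 to 0.0997 for Enpp6.

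Rat numbers were also used as a replicate block, although nothing pairs rats of the same number. The replicate block gave 1274 genes in GDX males, 0 in OVX females, 0 in the interaction and 255 between intact males and females. With it Pdgfra was no longer called in GDX males (log2 fold change 0.26, adjusted p = 0.135). It changed the sign of Gpr17 in GDX males (0.0181), of Cspg4 between intact males and females (−0.011) and of Sox10 (−0.0242) and Gpr17 (−0.16) by library class. Correlations of rats sharing a number exceeded 0.1 in 0 pairs.

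Of the log2 fold changes of the 10 genes over all alternatives, 1222 kept their sign and their side of the threshold, 18 called ones missed it, 4 others passed it and 66 changed sign. Of the median log2 fold changes of the lists, 2500 moved by less than the spread between rats and 120 by more. Library class could not be a term for GDX males against OVX females, all of 1 class. Several list medians of under 0.1 in size changed sign on leaving out a single rat. The causes of the changes were not tested. Groups were of 5 or 6 rats, and only 2 intact males and 2 intact females had shorter-fragment libraries. Genes with few reads, Gpr17 and Tcf7l2 among the 10, were measured with less precision than Bcas1.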
